A study of Homo sapiens with 4 samples.

Results

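The 33 genes described here make and control cholesterol and the fatty acids that are built alongside it, and were chosen by name as cholesterol synthesis genes and targets of the sterol regulatory element-binding proteins (SREBPs). All 33 were found among the 57500 genes of the count files, and all 33 passed the filter on low counts. RNA from parental SUM159 cells, an MpBC (metaplastic breast cancer) cell line that the labels call triple-negative, was sequenced in 1 library. RNA from each of 3 NOS2KO clones of the same line, numbered 1, 5 and 6, was sequenced in 1 library each. The clones came from SUM159 cells given a double nickase plasmid against NOS2, selected with puromycin and chosen by immunoblot for iNOS protein and by a nitrite/nitrate assay, so each clone is a separate line grown from selected cells, whereas the labels name no such step for the parental cells. All 4 libraries were of cells grown in DMEM with serum, with no drug named. The comparison asks which genes of sterol and fatty acid synthesis differed in level once NOS2, the gene of inducible nitric oxide synthase, was targeted.

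Cells build cholesterol from acetyl-CoA through mevalonate and squalene, and SREBF1 and SREBF2 encode the SREBPs, membrane-bound transcription factors that switch on most genes of this route. When sterols in the endoplasmic reticulum are scarce, SCAP carries the SREBPs to the Golgi, where proteases release their active part, and when sterols are plentiful the INSIG proteins hold SCAP back. The liver X receptors (LXRs), which are activated by oxidised sterols, switch on the exporters ABCA1 and ABCG1, so the transcripts of synthesis and of export are known to move in opposite directions with the sterol content of a cell.

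The 4 libraries summed to 90467395 to 122171287 counts on genes, the most in clone 1. NOS2 itself was counted 2 times in parental cells and 3, 18 and 1 times in the libraries labelled 1, 5 and 6. These counts were too few to check a knockout or to go against one. The library labelled clone 5 had more than the parental library, so it is named by its label throughout. In lists of values, "clones 1, 5 and 6" stands for the libraries labelled so. Of the markers of a mesenchymal-like triple-negative line, VIM, CD44, FN1 and ZEB1 lay between 39.5 and 3855 CPM (counts per 1000000 counts of the TMM-scaled library size) in the 4 libraries. ESR1, PGR and EPCAM stayed at or under 0.741 CPM, while ERBB2, also listed as a marker such a line should lack, had 48.3 to 106 CPM. Among 4 markers of cells that the culture should lack, PTPRC, a leukocyte surface phosphatase, had 4.45 CPM in the parental library and 68.4, 105 and 41.7 CPM in clones 1, 5 and 6. CD3E had at most 8 counts, PECAM1 had 7.06 to 16.1 CPM, and CDH5 had at most 0.162 CPM apart from 3.49 CPM in the library labelled clone 5. Of leukocyte genes added after PTPRC had been seen, CD2 had at most 3 counts and SPI1 23 to 32 counts, and CD14 had 12.8 CPM in the parental library against 2.29 to 11.3 CPM in the clones. The part of PTPRC, CD14 or CDH5 in any result below was not tested.

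The enzymes of cholesterol synthesis had higher transcript levels in the clones than in the parental library, most of all in clone 1. Of the 18 enzymes, 16 were higher in all 3 clones, beside 27.8% of the genes that reached 10 CPM in some library. By the test across all genes described below, 3 of the 18 met the criterion and none passed an adjusted p of 0.05 in edgeR. Their median ratio to the parental level was highest in clone 1, at 4.12-fold, and lowest in clone 6, at 1.85-fold. The exporters ABCA1 and ABCG1 were lower in every clone, by 2.92-fold to 29.4-fold, and STARD4, a carrier of cholesterol between membranes, was 2.15-fold to 2.31-fold higher. The genes of the SREBPs themselves differed by at most 1.60-fold, and the fatty acid enzymes showed no common direction. As the libraries are bulk RNA, fewer cells of a type and less RNA per cell cannot be told apart.

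Each member can be read as 3 ratios to 1 parental library, which are shown on the plot of log2 ratios by gene. In these ratios counting error was small, with no 95% interval wider than 0.16 to either side on the log2 scale, but the parental level rests on 1 culture. The smallest p that an exact permutation test allows here, for 1 parental library and 3 clones, is 0.25, so the test used was edgeR's quasi-likelihood test across all 22511 genes kept, with the spread taken from the clones alone.

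**Figure D1:**
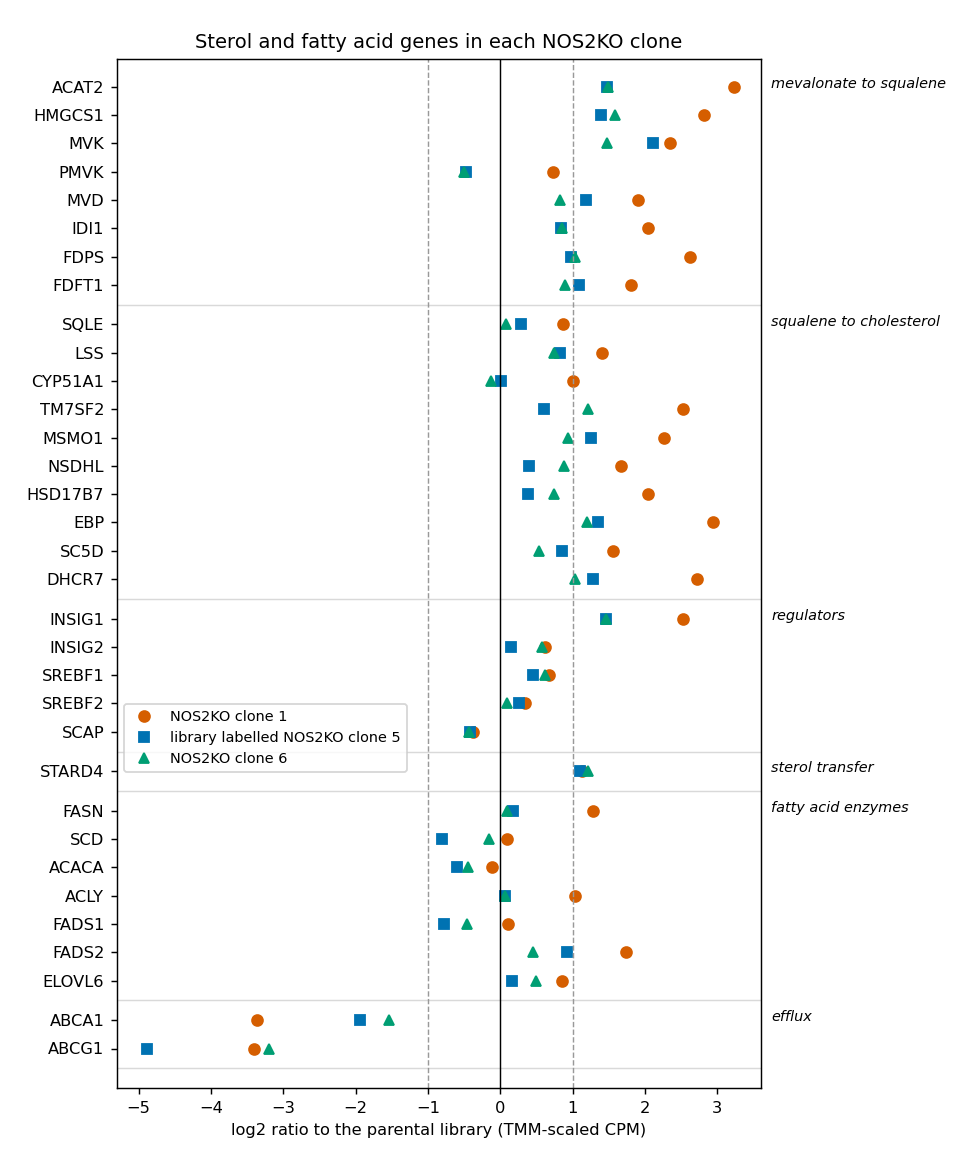
Ratio of each clone to the parental library for the 33 members, grouped by role (log2 ratio of TMM-scaled CPM on the horizontal axis, 1 library per point, dashed lines at 2-fold). The points of clone 1 lie furthest right for 18 of 18 cholesterol enzymes, and the points of ABCA1 and ABCG1 all lie left of the 2-fold line.

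The first steps of the pathway, from acetyl-CoA to squalene, were covered by 8 members. ACAT2, the cytosolic thiolase that joins acetyl-CoA units, had 24.8 CPM in the parental library and 233, 69.4 and 69.6 CPM in clones 1, 5 and 6. HMGCS1 (ENSG00000112972, chromosome 5 of GRCh38, 43289395 to 43313512, minus strand), the synthase that makes HMG-CoA, had 77.1 CPM in parental cells against 543, 204 and 232 CPM in clones 1, 5 and 6. MVK (ENSG00000110921, chromosome 12, 109573255 to 109598117, plus strand), the kinase of mevalonate, had 15.2 CPM against 77.5, 65.6 and 42.3 CPM. All 3 genes were more than 2-fold higher in every clone, with clone 1 the highest, and no clone overlapped the parental level.

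FDFT1 (ENSG00000079459, chromosome 8), squalene synthase, had 105 CPM in the parental library and 370.2, 224 and 196 CPM in clones 1, 5 and 6. FDPS, which makes farnesyl diphosphate, had 68.2 CPM against 421, 135 and 140.2 CPM, and IDI1, the isomerase of the isoprene units, had 33.4 CPM against 137, 59.7 and 60.6 CPM. MVD, the decarboxylase that makes the first isoprene unit, had 31.0 CPM against 116, 70.8 and 55.2 CPM. In these 4 genes too every clone lay above the parental library, and the clones labelled 5 and 6 lay close together. PMVK, phosphomevalonate kinase, was the exception, with 25.9 CPM in parental cells, above it 43.1 CPM in clone 1, and below it 18.6 and 18.3 CPM in the clones labelled 5 and 6.

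The later steps, from squalene to cholesterol, were covered by 10 members. EBP, a sterol isomerase, had 26.2 CPM in the parental library and 201, 67.0 and 60.3 CPM in clones 1, 5 and 6. DHCR7, the reductase that makes cholesterol from its last precursor, had 102 CPM against 674, 249 and 211 CPM. MSMO1, a methylsterol oxidase, had 56.2 CPM against 269.9, 134 and 108 CPM. EBP and DHCR7 were above 2-fold in every clone, and MSMO1 fell short of it in clone 6 alone.

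TM7SF2, a sterol reductase, had 8.14 CPM in the parental library and 46.9, 12.4 and 18.9 CPM in the clones, and HSD17B7, a sterol ketoreductase, had 5.62 CPM against 23.3, 7.31 and 9.45 CPM. These are the only 2 members that reached 10 CPM in the clones alone, so their share in a count over genes of at least 10 CPM follows in part from that limit. LSS, lanosterol synthase, NSDHL, a sterol dehydrogenase, and SC5D, a sterol desaturase, were 2.66-fold to 3.17-fold higher in clone 1 and 1.32-fold to 1.83-fold higher in the other clones. SQLE, the squalene epoxidase that is often counted as a second control point of the pathway, had 88.0 CPM in the parental library and 161, 108 and 92.9 CPM in the clones, the smallest difference of the enzymes that were higher in all 3 clones. CYP51A1, the lanosterol demethylase, had 51.6 CPM against 104, 51.9 and 47.1 CPM, so clone 1 alone stood apart from the parental library.

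**Figure D2:**
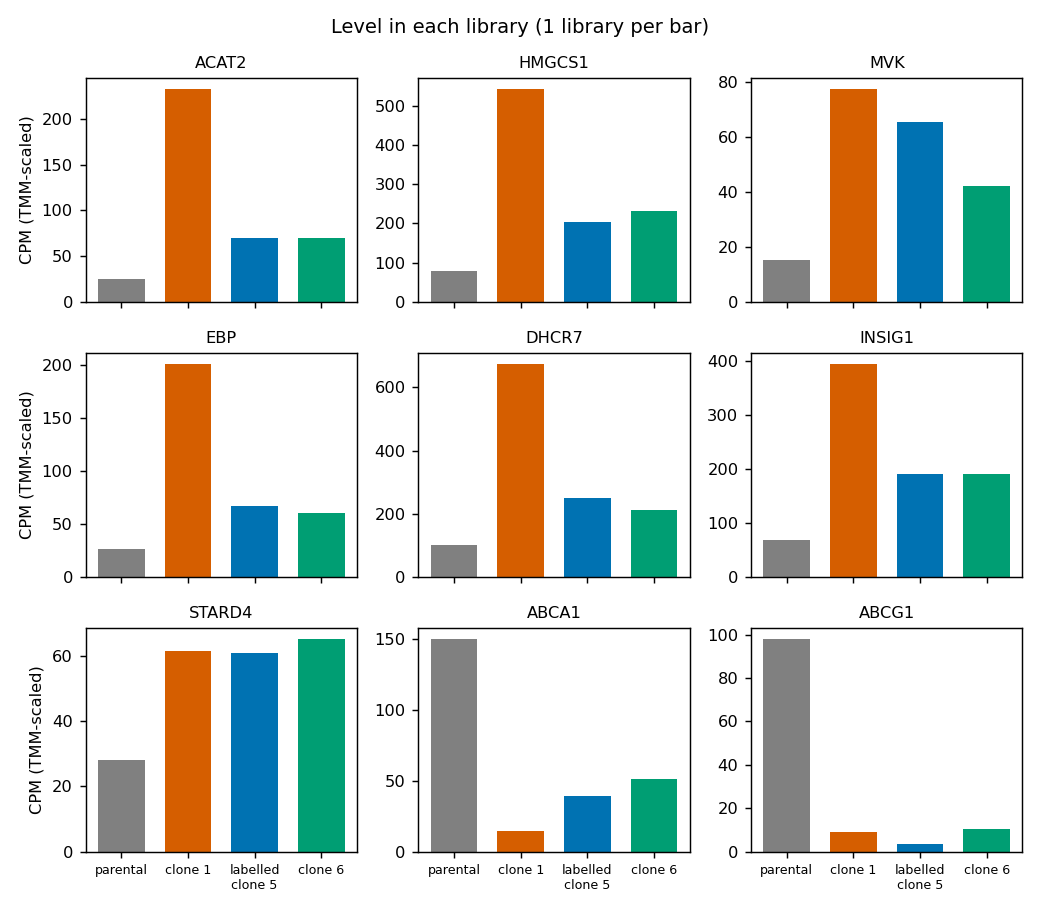
Level of 9 members in each library (TMM-scaled CPM, 1 library per bar, axis from 0). In 7 of the genes every clone is above the parental library by more than 2-fold, and in ABCA1 and ABCG1 every clone is below it.

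Counted over the pathway, 16 of 18 enzymes were more than 2-fold higher in clone 1 than in the parental library, while 11.6% of the 10709 genes that reached 10 CPM in some library were. In the library labelled clone 5 the count was 8 of 18 against 10.6% of genes, and in clone 6 it was 7 of 18 against 11.1%. Over all 33 members the counts were 21, 10 and 9. No enzyme was more than 2-fold lower in any clone, where 11.7%, 12.6% and 12.3% of genes were in clones 1, 5 and 6. The bars of the share of genes above 2-fold set these values side by side by step of the pathway.

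**Figure D3:**
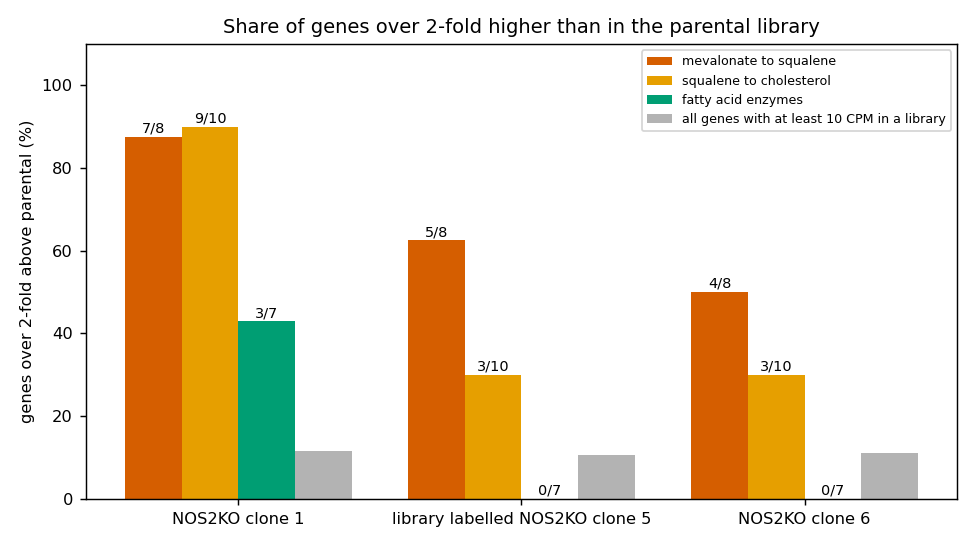
Share of genes more than 2-fold higher than in the parental library, in each clone, for 3 groups of members and for the 10709 genes that reached 10 CPM in some library (percent, counts printed above the bars of members). Clone 1 holds 7 of 8 and 9 of 10 enzymes of the steps before and after squalene, and the fatty acid enzymes reach 2-fold in clone 1 only, at 3 of 7.

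More than 2-fold higher in all 3 clones were 7 members, ACAT2, HMGCS1, MVK, EBP, DHCR7, INSIG1 and STARD4, or 21.2% of the 33, beside 4.26% of the genes with at least 10 CPM. More than 2-fold lower in all 3 were ABCA1 and ABCG1, beside 5.24% of genes. With no limit on size, 25 members were higher in all 3 clones, beside 27.8% of genes, and 4 were lower in all 3 (SCAP, ACACA, ABCA1 and ABCG1), beside 37.3%. Those 25 and 4 members were the same under 3 other scalings of the libraries. The 4 members with clones on both sides of the parental library were PMVK, CYP51A1, SCD and FADS1.

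The criterion was taken from the study, an unadjusted p under 0.05 with a log2 fold change above 1 or below -1, which the study applied to a Wald test and which is applied here to edgeR's quasi-likelihood test first. By it, 5 members were higher in the clones (HMGCS1, MVK, FDFT1, INSIG1 and STARD4), that is 15.2% of the members beside 4.24% of all genes tested. ABCA1 and ABCG1 were lower, 2 of 33 members beside 5.34% of all genes. In either direction these are 7 members, beside 9.58%. DESeq2's Wald test, the kind of test the study names, placed 12 members higher, beside 4.56% of genes, and the same 2 lower, beside 3.23%. These 14, beside 7.79% in either direction, were also all the members with an unadjusted p under 0.05 in DESeq2, beside 8.23%. The 12 were the 5 above with ACAT2, MVD, FDPS, TM7SF2, MSMO1, EBP and DHCR7. Over all genes the split of calls also differed between the tools, with 44.3% of calls higher in edgeR and 58.6% in DESeq2. After Benjamini-Hochberg adjustment no member passed 0.05 in the quasi-likelihood test of edgeR, where 0.00444% of genes (1 of 22511) did, although 7 members had an unadjusted p under 0.05, beside 11.5% of genes. In DESeq2, 2 members passed it, MVK and ABCG1, beside 4.57% of genes. Leaving out clone 1 gave 10 members higher by the criterion, beside 8.18% of all genes. Leaving out the library labelled clone 5 gave 8, beside 3.20%, and leaving out clone 6 gave 10, beside 2.89%.

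HMGCS1 had a log2 fold change of 2.08 ± 0.66 (SE, 3 clones against 1 parental library, adjusted p = 0.413 with edgeR's quasi-likelihood test). MVK had 2.02 ± 0.41, with an adjusted p of 0.332 in edgeR, of 0.0142 in DESeq2 and of 0.0142 to 0.342 over the alternatives that kept all 4 libraries. FDFT1 had 1.32 ± 0.46, with an adjusted p of 0.431 in edgeR, and met the criterion neither without clone 1, at a log2 fold change of 1.00, nor without the library labelled clone 5, at 1.45, nor with robust estimation. ACAT2, EBP and DHCR7 had fold changes as large, at 2.32 ± 0.83, 2.06 ± 0.79 and 1.88 ± 0.76 on the log2 scale, and did not meet the criterion in edgeR, with clone 1 far above the other clones, which lay within 0.24 of each other. Without clone 1 all 3 met it, at 1.49, 1.28 and 1.17. ACAT2 and EBP also met it without either of the other clones, at 2.61 to 2.62 and 2.33 to 2.35, and DHCR7 met it without clone 6 but not without the library labelled clone 5, at 2.13.

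The median log2 fold change was 1.57 for the 8 enzymes up to squalene, 1.16 for the 10 after it and 1.37 for the 18 together, beside 0.10 for all genes tested and -0.04 for those with at least 10 CPM. Without clone 1 the median of the 18 was 0.97, and without either of the other clones it was 1.57 or 1.58. The plot of fold change against mean level shows these members among all genes.

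**Figure D4:**
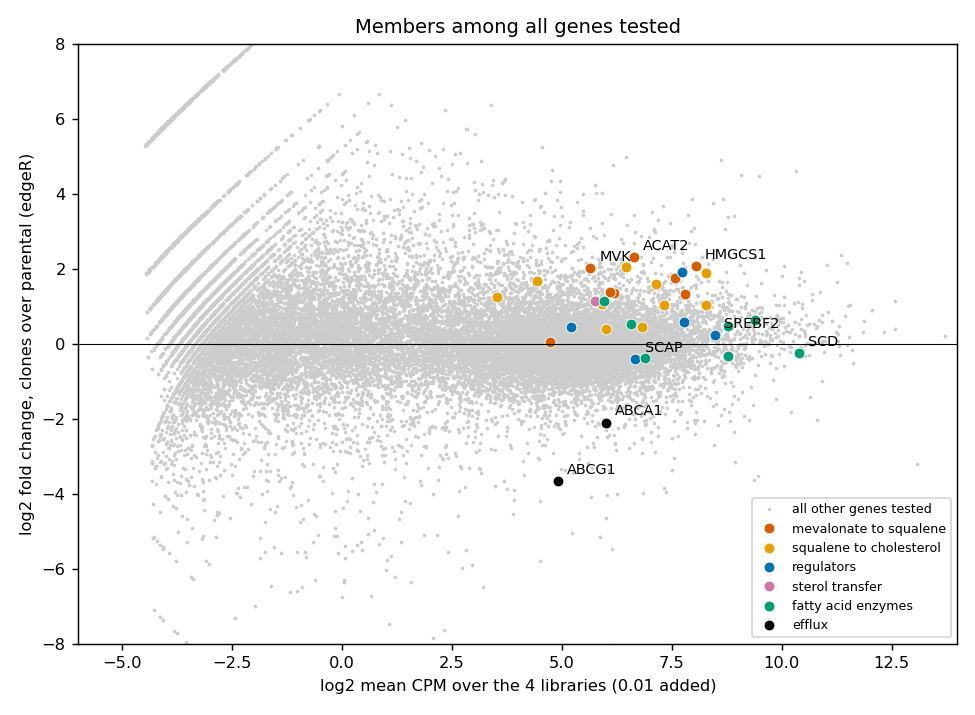
Log2 fold change of the clones over the parental library in edgeR (vertical axis, shown from -8 to 8) against the log2 mean CPM of the 4 libraries, with 0.01 added (horizontal axis), for every gene tested (grey) and the 33 members (coloured by role). Most cholesterol enzymes lie above the bulk of genes of like level, and ABCA1 and ABCG1 lie below it.

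Clone 1 was the highest of the 4 libraries in 28 of 33 members and in all 18 enzymes. It was the highest for 29.9% of the genes with at least 10 CPM. Of the 3 clones it was the highest in 30 members, and in 26 with upper quartile scaling or scaling by total counts. It stayed the highest of the clones in all 18 enzymes under each of the other scalings. The share of all genes for which it was the highest clone was not counted. In MVK, SQLE and LSS it was within 1.5-fold of another clone. In 12 of the 18 enzymes clone 1 was more than 2-fold above the library labelled clone 5, beside 8.37% of genes, and in 13 it was more than 2-fold above clone 6, beside 8.13%. The clones labelled 5 and 6 were more than 2-fold apart in none of the enzymes and in 1 of 33 members, ABCG1, beside 5.65% of genes. The median SD of the log2 level over the clones was 0.69 for the enzymes and 0.31 for all genes with at least 10 CPM. As each clone is 1 library, this difference between clones has no replicate check, and clone 1 is also the most deeply sequenced library. The part of depth in it was not tested.

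Per base of exon length the members ranged widely. In the parental library SCD had the highest level, at 1076 TPM (transcripts per 1000000, which takes exon length into account), followed by ACLY at 248, FASN at 195 and FADS1 at 191 TPM, and HSD17B7 had the lowest, at 5.16 TPM. In the mean of the clones SCD was still first, at 861 TPM, and ACLY second, at 321 TPM. DHCR7 moved from the sixth to the third place, with 93.3 TPM in the parental library and 532, 239 and 185 TPM in clones 1, 5 and 6. HMGCS1 moved from place 17 to place 6, with 62.1 TPM against 379.7, 173 and 180.0 TPM, and ABCG1 moved from place 19 to the last. The 18 enzymes together made up 937 TPM in the parental library and 3439, 1858 and 1595 TPM in clones 1, 5 and 6. MVK, at 39.3, 40.4 and 23.8 TPM in these clones, was the only enzyme not highest in clone 1 by TPM. By TPM clone 1 was also not the highest library for SREBF1, SREBF2, INSIG2, SCD or FADS1. Places next to each other in this order were often closer than the clones were to one another, as for FASN and FADS1 in the parental library.

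Of the 5 regulators, INSIG1 alone met the criterion. SREBF2, which encodes the SREBP that mainly drives cholesterol genes, had 315 CPM in the parental library and 399, 377 and 335 CPM in clones 1, 5 and 6. SREBF1, whose products include the SREBP that mainly drives fatty acid genes, had 159 CPM against 255, 219.9 and 246 CPM. SCAP, the escort of the SREBPs, had 125 CPM against 96.6, 93.7 and 93.1 CPM. SREBF1 and SREBF2 were a little higher in every clone and SCAP a little lower in every clone, with the 3 clones within 0.25 of each other on the log2 scale. Their log2 fold changes were 0.59 ± 0.28, 0.23 ± 0.30 and -0.41 ± 0.26, and none met the criterion.

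INSIG1 (ENSG00000186480, chromosome 7, 155297776 to 155310235, plus strand), which retains SCAP and is itself an SREBP target, had 68.7 CPM in the parental library and 395, 190.3 and 190.1 CPM in clones 1, 5 and 6. Every clone was at least 2.77-fold above the parental library, and the log2 fold change was 1.91 ± 0.54 (adjusted p = 0.377 with edgeR's quasi-likelihood test). INSIG2, its paralog, which is known to be less tied to SREBP activity, had 28.9 CPM against 44.3, 32.0 and 43.1 CPM, and did not meet the criterion. STARD4 (ENSG00000164211, chromosome 5, 111496033 to 111512590, minus strand), a further SREBP target, had 28.2 CPM against 61.5, 60.7 and 65.1 CPM. Its 3 clones were nearly level, and its log2 fold change of 1.15 ± 0.25 (adjusted p = 0.332 in edgeR) had the smallest error of the members past the criterion. Clone 1, the highest in CPM for every cholesterol enzyme, was thus not the highest for STARD4.

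Exporters of cholesterol stood on the other side of the parental library. ABCA1 (ENSG00000165029, chromosome 9, 104781002 to 104928237, minus strand), which loads cholesterol onto lipid-poor apolipoprotein, had 149.7 CPM in the parental library and 14.5, 39.0 and 51.4 CPM in clones 1, 5 and 6. ABCG1 (ENSG00000160179, chromosome 21, 42199689 to 42297244, plus strand), which passes cholesterol to larger lipoproteins, had 97.9 CPM against 9.22, 3.33 and 10.6 CPM. No clone came near the parental level of either gene, and the lowest library was clone 1 for ABCA1 and the library labelled clone 5 for ABCG1. ABCA1 was lower by 10.3-fold, 3.84-fold and 2.92-fold, with a log2 fold change of -2.10 ± 0.71 (adjusted p = 0.369 in edgeR). ABCG1 was lower by 10.6-fold, 29.4-fold and 9.21-fold, with a log2 fold change of -3.66 ± 0.69. Its adjusted p was 0.275 in edgeR, the lowest of the members, 0.000291 in DESeq2, and between 0.000291 and 0.304 over the alternatives that kept all 4 libraries.

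Fatty acid enzymes, which SREBPs also switch on, are given in 2 sets, which were formed from the directions seen in these libraries. FASN, the fatty acid synthase, had 482 CPM in the parental library and 1167, 545 and 515 CPM in clones 1, 5 and 6, and ACLY, which supplies cytosolic acetyl-CoA, had 342 CPM against 699, 359 and 358 CPM. Both were more than 2-fold higher in clone 1 and within 1.13-fold of the parental library in the other clones. FADS2, a desaturase, had 32.4 CPM against 109, 61.7 and 44.5 CPM, and ELOVL6, an elongase, had 70.8 CPM against 129, 79.0 and 99.5 CPM. In these 4 genes every clone lay above the parental library.

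SCD, the desaturase that makes monounsaturated fatty acids, had 1523 CPM in the parental library and 1631, 872 and 1375 CPM in clones 1, 5 and 6. FADS1, the partner desaturase of FADS2, had 516 CPM against 558, 301 and 375 CPM, and ACACA, the acetyl-CoA carboxylase that starts fatty acid synthesis, had 142 CPM against 132, 94.0 and 104 CPM. In these 3 genes the clones labelled 5 and 6 lay below the parental library and clone 1 lay within 1.08-fold of it. The median log2 fold change of the 7 fatty acid enzymes was 0.47, from -0.37 to 1.14, and none met the criterion. Without clone 1 their median was 0.07.

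Because these genes are known to share promoter features, the window from 250 bases before to 50 bases after each RefSeq start (GRCh38.p14) was searched on both strands. The motifs were the sterol regulatory element TCACNCCAC, the E-box CACGTG and the CCAAT box, the letters CCAAT that the factor NF-Y binds. Windows were found for 28 of the 33 members. The CCAAT box was in 20 of 28 members (71.4%) and in 13 of 15 cholesterol enzymes (86.7%), beside 39.7% of 27305 genes and 43.9% of the 8482 such genes that reached 10 CPM. The 2 enzymes without it were PMVK and CYP51A1, which were also the 2 enzymes not higher in all 3 clones. This is a description of letters in a window, without a test, and the names of those 2 genes were compared after both lists had been seen. The match did not hold over the other members with a window. SCD and ACACA hold the box and were not higher in all 3 clones, while INSIG2, SREBF1 and ELOVL6 lack it and were higher. INSIG1, SREBF2, STARD4, ACLY and FADS2 hold it and were higher, and SCAP, FADS1 and ABCA1 lack it and were not. The E-box was in 5 of 28 members (LSS, SC5D, INSIG1, SCAP and ABCA1), beside 8.77% of genes and 13.1% of those that reached 10 CPM. The sterol regulatory element, in exactly those letters, was in SREBF2 alone, beside 1.39% of genes and 1.51% of those that reached 10 CPM. A shorter form, CACNCCAC, lies within it and was added after that count had been seen. It was in 7 of 28 members (IDI1, SC5D, INSIG1, SREBF2, SCD, ACACA and ABCA1), beside 7.05% of genes and 7.68% of those that reached 10 CPM. No other form of the element was searched, so a member without a match may still hold one.

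The windows below are of genes with large differences above, and of CYP51A1 and SREBF2. CYP51A1 is shown as an enzyme level with the parental library in the clones labelled 5 and 6. SREBF2 is shown as the only member with the exact letters TCACNCCAC. Capitals mark the CCAAT box, read as CCAAT or as its complement ATTGG, the E-box and the sterol regulatory element, and only bases outside the exons of protein-coding genes in GENCODE release 29 are given, so a window may end short of the start and leave out some of its matches.
HMGCS1, chr5:43313513-43313662, minus strand: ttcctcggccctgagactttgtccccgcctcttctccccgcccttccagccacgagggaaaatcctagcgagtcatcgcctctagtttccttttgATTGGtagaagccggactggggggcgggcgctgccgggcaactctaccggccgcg
FDPS, chr1:155308616-155308747, plus strand: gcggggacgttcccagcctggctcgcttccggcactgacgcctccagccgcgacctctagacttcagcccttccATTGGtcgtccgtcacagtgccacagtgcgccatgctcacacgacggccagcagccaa
MSMO1, chr4:165327423-165327622, plus strand: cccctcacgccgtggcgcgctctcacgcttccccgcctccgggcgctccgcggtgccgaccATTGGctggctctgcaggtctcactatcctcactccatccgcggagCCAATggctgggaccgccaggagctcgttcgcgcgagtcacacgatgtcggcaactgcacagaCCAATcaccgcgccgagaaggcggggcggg
DHCR7, chr11:71448436-71448635, minus strand: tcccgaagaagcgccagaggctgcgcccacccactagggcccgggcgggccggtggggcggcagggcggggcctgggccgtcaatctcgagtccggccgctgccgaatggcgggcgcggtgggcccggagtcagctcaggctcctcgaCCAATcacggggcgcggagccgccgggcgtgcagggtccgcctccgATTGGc
CYP51A1, chr7:92134531-92134665, minus strand: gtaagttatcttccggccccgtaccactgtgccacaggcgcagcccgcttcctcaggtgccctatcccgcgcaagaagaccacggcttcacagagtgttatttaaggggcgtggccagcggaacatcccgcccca
INSIG1, chr7:155297628-155297775, plus strand: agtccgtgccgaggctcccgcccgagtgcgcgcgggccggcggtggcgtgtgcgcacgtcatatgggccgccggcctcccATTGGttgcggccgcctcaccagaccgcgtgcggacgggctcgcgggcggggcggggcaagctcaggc
STARD4, chr5:111512591-111512785, minus strand: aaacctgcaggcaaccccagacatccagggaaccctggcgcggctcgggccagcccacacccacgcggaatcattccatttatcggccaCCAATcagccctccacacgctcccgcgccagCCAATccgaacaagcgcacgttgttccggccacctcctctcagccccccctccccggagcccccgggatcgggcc
SREBF2, chr22:41832879-41833078, plus strand: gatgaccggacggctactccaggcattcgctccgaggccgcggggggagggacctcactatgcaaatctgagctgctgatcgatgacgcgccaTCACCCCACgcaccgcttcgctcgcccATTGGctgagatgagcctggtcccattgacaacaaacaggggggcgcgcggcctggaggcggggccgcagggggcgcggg
ABCA1, chr9:104928238-104928405, minus strand: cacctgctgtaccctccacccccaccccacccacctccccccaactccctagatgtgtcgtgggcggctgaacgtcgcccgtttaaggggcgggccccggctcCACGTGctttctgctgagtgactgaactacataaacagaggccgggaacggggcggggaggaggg
In the stretches shown, HMGCS1, FDPS, MSMO1, DHCR7, INSIG1 and STARD4 hold 1 to 3 CCAAT boxes each, and CYP51A1 holds none. SREBF2 holds the sterol regulatory element upstream of a CCAAT box, and ABCA1 holds an E-box and no CCAAT box. Whether these letters bear on the direction of a gene in the clones was not tested.

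Some members share exon positions with other genes, and the strand setting of the counting is not given in the sources used here, so reads from opposite strands cannot be told apart there. ACAT2 shares 1850 exon bases, 43.0% of its exon length, with SOD2 on the other strand, and SOD2 (mitochondrial superoxide dismutase) had 2120 CPM in the parental library against 279, 108 and 130.1 CPM in the clones, the opposite direction to ACAT2. CYP51A1 shares 78.8% of its exon length with LRRD1 on the same strand, which had at most 0.0938 CPM. FADS1 and FADS2 share 490 bases on opposite strands. STARD4 shares 124 bases with STARD4-AS1 on the other strand, which had 2.75 CPM in the parental library and 12.2, 17.2 and 18.6 CPM in the clones. ACAT2 also shares 397 bases with TCP1 on the other strand, which had 229 CPM in the parental library and 329, 133 and 186 CPM in the clones. MVK shares 306 bases with MMAB on the other strand, which had 49.0 CPM against 59.4, 60.2 and 52.9 CPM. FDPS shares 693 bases with RUSC1-AS1 on the other strand, which had at most 6.91 CPM. Some other members also share positions. How far any of these overlaps bear on the values was not tested.

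Of a wider list of sterol and fatty acid genes, 44 were found, and 4 met the criterion as higher in the clones and 2 as lower, which is 9.09% and 4.55% of the list beside the 4.24% and 5.34% of all genes. None had an adjusted p under 0.05 in edgeR, and 8 had an unadjusted p under 0.05, beside 11.5% of all genes. In DESeq2 1 of them, NPC2, had an adjusted p under 0.05, beside 4.57%. NPC2, the protein that binds cholesterol in the lysosome, had 43.6 CPM in the parental library and 294, 157 and 258 CPM in clones 1, 5 and 6. NPC1, the membrane protein that takes cholesterol over from NPC2, had 212 CPM against 125, 85.0 and 84.4 CPM. The partners thus lay on opposite sides of the parental library in every clone, with log2 fold changes of 2.44 ± 0.44 and -1.11 ± 0.36.

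TECR, the reductase of the fatty acid elongation cycle, had 57.1 CPM in the parental library and 178, 136 and 136 CPM in clones 1, 5 and 6. ACSS2, which makes acetyl-CoA from acetate and is an SREBP target, had 40.5 CPM against 94.8, 76.0 and 86.9 CPM. SCD5, a relative of SCD, had 4.51 CPM against 20.0, 9.08 and 12.7 CPM. Of the genes named here, NPC1 did not meet the criterion once the library labelled clone 5 or clone 6 was left out, and ACSS2 and SCD5 did not once clone 6 was.

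By role, the 11 genes of SREBP processing and degradation had a median log2 fold change of -0.26. The 9 other SREBP targets had 1.09, and 2 of them met the criterion as higher. Clone by clone, the median log2 ratio of these 9 to the parental library was 0.47, 0.91 and 0.90 in clones 1, 5 and 6. Clone 1, the highest in CPM for every cholesterol enzyme, was thus the lowest here. One of the 9, MID1IP1, had a log2 fold change of 1.40 although it was below the parental library in clones 1 and 6. The 5 genes of the isoprenoid branches that leave the pathway before squalene, among them GGPS1 and DHDDS, had a median of 0.04, from -0.54 to 0.24, and none met the criterion. The 4 genes of the LXR list had a median of 0.23. In it NR1H2, the widely expressed LXR, had 118 CPM in the parental library and 118, 82.2 and 101 CPM in the clones, and NR1H3, the other LXR, had 27.7 CPM against 15.4, 17.6 and 36.4 CPM. MYLIP, an LXR target, had 25.3 CPM against 51.6, 39.5 and 37.3 CPM, so it was higher in every clone while ABCA1 and ABCG1, which are also LXR targets, were lower. None of the 4 met the criterion.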

How the data were processed

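The authors deposited raw counts per gene for 57500 genes, 1 file per library, with no normalization. The submitters' processing notes name bcl2fastq 2.17, Trimmomatic 0.36, STAR 2.5.2b, featureCounts of Subread 1.5.2, DESeq2 and GRCh38. The labels give a NEBNext Ultra II RNA kit on mRNA enriched with oligo(dT) beads, and the strand setting is not given in the sources used here. Coordinates are those of the files, and 56898 genes had a symbol in GENCODE release 29, whose start and end 31 of the 33 members shared.

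edgeR 4.0.16, run under R 4.3.3, was used to fit the counts (TMM scaling, filterByExpr by group, glmQLFit, glmQLFTest, group as the only term, Benjamini-Hochberg adjustment over 22511 genes). The common dispersion was 0.319, with 2 residual and 2.75 prior degrees of freedom, so the spread among the 3 clones stands for the parental library too. DESeq2 1.42.0, other scalings, filters and fits, and leaving out each clone were the alternatives. Scripts were first tested on simulated data. CPM is relative to the TMM-scaled library size, TPM uses the exon lengths in the files, and intervals are exact Clopper-Pearson 95% intervals that cover counting error only. Ratios of single clones have no test. Other steps used Python 3.11.15, numpy 2.4.6, pandas 2.3.3, scipy 1.17.1 and matplotlib 3.10.9.

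The members, the wider list, the role groups, the motifs and the markers were chosen with earlier results of these data known. Values per library are given for members past the criterion, members more than 2-fold from the parental library in all 3 clones, the regulators and the usual readouts of each branch, and for genes of the wider list past the criterion. Other genes were named after their values were seen. Promoter windows came from RefSeq (GRCh38.p14), for 28 members. Some genes of the lists are not reported here.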

Additional observations from a re-analysis of the deposited data

How the results depend on the processing

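The count of members higher in the clones by the criterion depended most on the settings. It was 5 as reported (4.24% of all genes), 8 with upper quartile scaling (4.99%), 8 with scaling by total counts (4.19%), 11 with no filter on low counts (3.47%), 12 with DESeq2's Wald test (4.56%), and 8 to 10 when 1 clone was left out (2.89% to 8.18%). Members with an adjusted p under 0.05 were 0 in edgeR and 2 in DESeq2. The count more than 2-fold higher in all 3 clones was 7, beside 4.26% of the genes with at least 10 CPM. At a limit of 1.5-fold it was 14, and the share of all genes at that limit was not counted. The log2 fold change of STARD4, the sterol transfer gene, was 1.15, and 1.25 with upper quartile scaling, which moved the median of all genes by 0.10. The wider list had 4 genes higher and 2 lower, with 2 to 7 and 0 to 2 when 1 clone was left out. With 1 clone left out, log2 fold changes ran from -0.49 to 0.26 for PMVK and from -0.06 to 0.60 for CYP51A1, turning sign without clone 1 in both, and from -0.44 to 0.00 for SCD, turning without the library labelled clone 5. The cause of these differences was not tested. The other 145 values of counts and medians stayed within 1.5 times or within the spread between clones. Of the values of single genes, 381 kept their direction and their side of the criterion, 36 came to meet it and 9 ceased to.

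No paired analysis was possible because 1 parental library stands against 3 separate clones and the labels pair none of them. With 1 parental library no spread among parental cultures can be seen, and a fit without 1 clone rests on the other 2. The lowest count of any member in a library was 355. The part of depth in the differences between libraries was not tested.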

Other observations

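2 SREBP targets of the wider list differed between the clones more than any member did, and were named after their values were seen. MID1IP1, which encodes a protein that activates acetyl-CoA carboxylase, was counted 1432 times in parental cells and 14, 13220 and 141 times in clones 1, 5 and 6, where 5 is the library labelled clone 5. These counts are 15.8 CPM against 0.122, 124 and 1.43 CPM. ACACB, the mitochondrial acetyl-CoA carboxylase, had 8.45 CPM in the parental library and 10.4, 44.8 and 62.1 CPM in clones 1, 5 and 6. Here clone 1, which had the highest CPM of every cholesterol enzyme, was the nearest to the parental library. ACACA, the cytosolic form, had 142 CPM against 132, 94.0 and 104 CPM.

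Receptors that take up lipoproteins also differed among the clones. VLDLR had 3.25 CPM in the parental library and 6.30, 8.64 and 14.4 CPM in clones 1, 5 and 6, and LRP8, a related receptor, had 102 CPM against 92.4, 56.8 and 27.3 CPM. Clone 6 lay furthest from the parental library for both, in opposite directions, and neither gene met the criterion in edgeR.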
